A study of Mus musculus with 6 samples.

Results

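The thin filament of the heart was followed through 10 genes: the actins Actc1 and Acta1, the troponin subunits Tnnt2, Tnni3, Tnni1 and Tnnc1, the tropomyosin Tpm1, the filament length regulators Tmod1 and Lmod2, and the actin turnover gene Cap2. They were chosen by gene symbol, and each had 1 row among the 23185 named genes of the array. Expression was measured in 3 irisin knockout and 3 wild type samples from FVB mice, with 1 Affymetrix array for each sample. Irisin is a hormone cut from the membrane protein that Fndc5 encodes, and the series title sets its loss against insulin resistance, cardiac dysfunction and ischaemic injury. The knockout animals came from zygotes injected with Cas9 mRNA and 5 guide RNAs, and the wild type animals were littermates. Both groups ate a standard chow with 10% fat for 24 weeks, and neither had further treatment that the labels name. No source used here says which stretch of Fndc5 the guides removed. The labels call the material cardiomyocytes in some fields and myocardium in another, and whether each array stands for its own animal is not spelled out. The p-values therefore measure spread between arrays, part of which may be technical.

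A thin filament is a double strand of actin wrapped by tropomyosin, with a troponin complex at regular steps along it. Calcium binding to troponin C moves the inhibitory subunit off actin and lets myosin heads attach, which starts each contraction. The slow-growing pointed end is capped by tropomodulin and extended by leiomodin, and the balance of these proteins sets filament length, on which the force of the heartbeat depends.

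Fndc5 stood at 7.68, 5.49 and 5.45 log2 units in knockout replicates 1, 2 and 3, against 8.42, 8.40 and 7.83 in wild type (limma, adjusted p = 0.0359). Knockout replicate 1 was thus nearer to wild type than the other knockout arrays. The call was lost in 6 of 18 alternative fits, of which 5 leave out a single array (adjusted p up to 0.133), and without knockout replicate 1 the difference was -2.75 (adjusted p = 0.00217), against -2.01 with it. Over all genes, 16.6% passed the adjusted threshold of 0.05, 10.4% higher and 6.18% lower in the knockout, and their balance depended on scaling: 62.8% of called genes were higher on the deposited values, 75.4% with array medians made equal, 55.2% after quantile normalization and 52.4% after cyclic loess normalization. Genes of high level tended to be higher in the knockout, with a median difference of 0.27 among the brightest 10% of genes against -0.05 over all genes. Cardiomyocyte markers averaged 10.89 to 11.09 in knockout and 10.80 to 11.12 in wild type arrays, so the groups overlapped and the labelled cell type was present in all 6. Markers of other cells were present too and were not even. The mean of 5 atrial markers was 5.85, 3.19 and 2.91 in knockout replicates 1, 2 and 3, against 9.67, 4.39 and 5.74 in wild type. Replicate 1 was thus the highest of its group in both genotypes, and wild type replicate 1 the highest of all arrays. The mean of 7 smooth muscle markers was 4.78 to 5.19 in knockout and 6.30 to 8.13 in wild type, and that of 8 fibroblast markers was 5.99 to 6.22 in knockout and 6.81 to 7.67 in wild type. No batch is named in the labels, and batch and genotype cannot be told apart.

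Among the 10 thin filament genes, Lmod2 and Cap2 were higher in the knockout, 0 were lower and 8 did not pass (limma, adjusted p under 0.05). The 2 calls make 20% of the genes, near the 16.6% called among all genes and below the 45.7% called among the brightest 10% of genes (34.5% higher and 11.1% lower), where all but Tnni1 lie. The values of the groups did not overlap for 6 genes, higher in the knockout for Actc1, Tnnt2, Tmod1, Lmod2 and Cap2 and lower for Tpm1. Among all genes 34.1% had no overlap, and among the brightest 10% of genes 65.1%. The median difference over the 10 genes was 0.35, against -0.05 for all genes and 0.27 for the brightest 10%. The genes did not share 1 direction: 6 had positive and 4 negative differences.

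**Figure D1:**
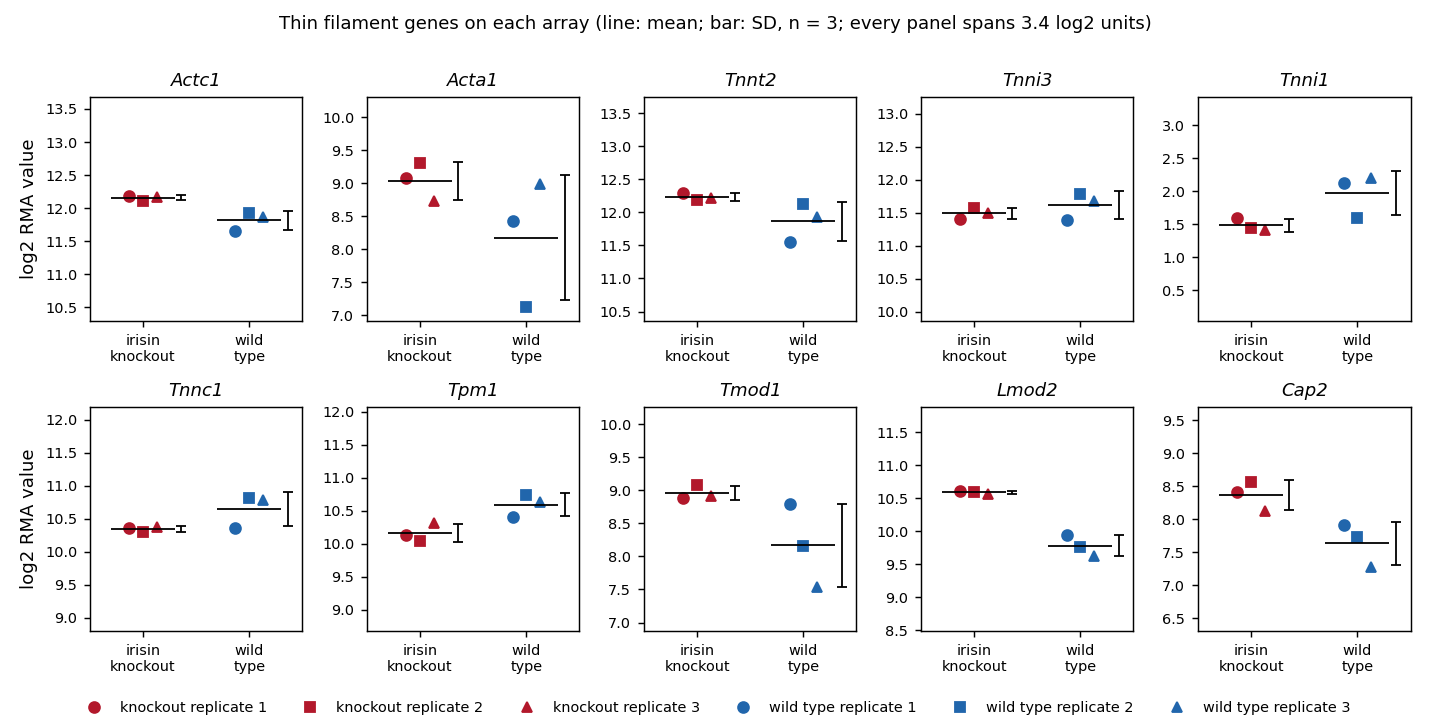
Log2 RMA value of each thin filament gene on every array, irisin knockout in red on the left and wild type in blue on the right of each panel, with the mean as a line and the SD (n = 3) as a bar. The knockout points of Lmod2 lie between 10.56 and 10.60, all above the wild type points at 9.62 to 9.95, while the wild type points of Acta1 spread from 7.13 to 8.98.

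The actins form the filament itself. Actc1, the alpha-cardiac actin that makes up most of the adult filament, read 12.19, 12.11 and 12.16 log2 units in knockout replicates 1, 2 and 3, against 11.65, 11.92 and 11.87 in wild type. All knockout values lay above all wild type values, but by a small margin. The difference was 0.34 (SE 0.12, 95% interval 0.07 to 0.62), with adjusted p = 0.0949 in limma. It turned to -0.21 (adjusted p = 0.378) after cyclic loess normalization. Both groups lay near the top of the range of these arrays, whose highest values were 11.86 to 12.96.

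Acta1, the alpha-skeletal actin, is used by the fetal heart and is known to return in the adult heart under load. It stood at 9.08, 9.31 and 8.73 in knockout replicates 1, 2 and 3, against 8.42, 7.13 and 8.98 in wild type. Wild type replicate 2 was far below the other arrays, and wild type replicate 3 lay inside the knockout range. The difference of 0.86 had the widest interval of the 10 genes (-0.08 to 1.79, adjusted p = 0.207), and without wild type replicate 2 it was 0.33. The mean of 8 skeletal muscle markers was 1.44 to 1.57 in knockout and 1.67 to 1.78 in wild type, with 0 of them called. Their fast myosins Myh1, Myh2 and Myh4 read 0.70 to 1.57 over the 6 arrays, while the fast troponin Tnnt3 read 2.14 to 2.38 in knockout and 2.25 to 2.56 in wild type, near the array medians. The part of skeletal muscle in the Acta1 values was not tested. The proteins of Actc1, Acta1 and the smooth muscle actins are near-identical, and the gene sequences were not compared here. The sources used here do not say how far the probes tell these genes apart, so each actin value is uncertain to that degree.

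The 2 striated muscle actins hold in their promoters the letters of the CArG box, the motif bound by serum response factor, the classical regulator of muscle actin genes. The RefSeq promoters (GRCm38.p6, 250 bases before to 50 after the start) are shown because these 2 genes alone among the 10 held an exact box. Capitals mark each CArG box and each run that departs from it at 1 base. The Actc1 promoter is chr2:114052826-114053125 and the Acta1 promoter chr8:123894726-123895025, both on the minus strand.
Actc1: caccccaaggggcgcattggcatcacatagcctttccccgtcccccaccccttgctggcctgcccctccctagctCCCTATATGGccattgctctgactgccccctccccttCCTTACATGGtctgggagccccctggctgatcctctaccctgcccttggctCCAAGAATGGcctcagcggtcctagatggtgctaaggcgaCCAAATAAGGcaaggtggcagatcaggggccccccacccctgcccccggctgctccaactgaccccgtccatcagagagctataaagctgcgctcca
Acta1: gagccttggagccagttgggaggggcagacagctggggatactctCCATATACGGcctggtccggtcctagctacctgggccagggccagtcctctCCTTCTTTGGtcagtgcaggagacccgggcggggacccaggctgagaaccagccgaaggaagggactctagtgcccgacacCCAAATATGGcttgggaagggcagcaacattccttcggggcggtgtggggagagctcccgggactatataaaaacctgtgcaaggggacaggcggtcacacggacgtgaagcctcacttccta
The exact box begins at -47 from the RefSeq start site in Actc1 and at -73 in Acta1. Such a box, read on both strands, was found in 1.63% of 32851 mouse promoters and a run with 1 departure in 19.9%. The letters TATAAA, found in 13.6% of promoters, begin at 34 in Actc1, after the RefSeq start, and at -7 in Acta1. Whether these RefSeq starts are the ones used in the heart was not tested, so the positions hold for the annotation only. A match is a run of letters and shows no binding. Srf, which encodes the factor, did not pass the test in these data.

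The troponin complex showed no call. Tnnt2, which ties the complex to tropomyosin, stood at 12.29, 12.18 and 12.21 in knockout replicates 1, 2 and 3, against 11.55, 12.13 and 11.93 in wild type. The groups did not overlap, yet wild type replicate 2 lay close below the lowest knockout array. The difference of 0.36 (interval 0.00 to 0.73) had an adjusted p of 0.174 and turned to -0.20 (adjusted p = 0.531) after cyclic loess normalization.

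Tnni3 encodes the inhibitory subunit of the adult heart. It read 11.40, 11.57 and 11.49 in knockout replicates 1, 2 and 3, against 11.39, 11.79 and 11.68 in wild type. The groups overlapped, with wild type replicate 1 lowest of all 6, and the difference was -0.13 (interval -0.44 to 0.18, adjusted p = 0.599). After cyclic loess normalization it was -0.66 (adjusted p = 0.0209).

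Tnnc1, the calcium-binding subunit, stood at 10.35, 10.29 and 10.38 in knockout replicates 1, 2 and 3, against 10.36, 10.81 and 10.78 in wild type. Wild type replicate 1 read like the knockout arrays, and the other wild type arrays were higher. The difference of -0.31 (SE 0.15, adjusted p = 0.208) passed without wild type replicate 1, at -0.45 (adjusted p = 0.0401), and after cyclic loess normalization, at -0.78 (0.0159).

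Tnni1 encodes the slow skeletal inhibitory subunit, which the fetal heart uses before Tnni3 replaces it. It was at 1.60, 1.44 and 1.42 in knockout replicates 1, 2 and 3, against 2.13, 1.59 and 2.19 in wild type. All these values lie below the medians of their own arrays, which were 2.13 to 2.28, where signal is not told apart from background here. The difference was -0.49 (SE 0.17, adjusted p = 0.0977), and it passed without wild type replicate 2, at -0.68 (adjusted p = 0.0128).

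Of 6 fetal cardiac genes listed, Acta1 and Tnni1 among them, 1 rose and 0 fell, a share of 16.7%, near the 16.6% called over all genes. Of the 6, 4 lie in the brightest 10%, where 45.7% were called and 34.5% called higher, against 10.4% higher over all genes. The gene that rose was Myh7, the beta-myosin heavy chain of the fetal ventricle, at 6.05, 7.40 and 6.46 in knockout replicates 1, 2 and 3, against 4.72, 4.45 and 5.57 in wild type, or 3.31-fold (limma, adjusted p = 0.0155). On the same array, the difference between Acta1 and Actc1 was larger by 0.52 (SE 0.61) in the knockout. That between Tnni1 and Tnni3 differed by -0.36 (SE 0.30), which measures no isoform balance, since Tnni1 is not told apart from background. Exact two-sided permutation tests gave p = 0.6 and 0.4 (0.9 for both, adjusted over 3 pairs). With 3 arrays against 3 no p below 0.1 is possible, so these tests do not bear on whether the balance shifted.

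Tpm1, the alpha-tropomyosin that lies along the filament and blocks myosin at rest, had a difference opposite in sign to those of the actins. It stood at 10.13, 10.04 and 10.31 in knockout replicates 1, 2 and 3, against 10.40, 10.74 and 10.63 in wild type. Every knockout value was below every wild type value, and wild type replicate 1 was again nearest to the knockout. The difference was -0.43 (SE 0.14, interval -0.74 to -0.11; adjusted p = 0.0689). It passed after quantile normalization (-0.60, adjusted p = 0.0327), after cyclic loess normalization (-0.90, 0.00549) and without wild type replicate 1 (-0.52, 0.0377). Tpm1 makes many isoforms by splicing, in muscle and other cells, and 1 value per gene does not separate them.

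The length regulators and Cap2 held the positive differences that were largest beside Acta1. Lmod2 encodes leiomodin-2, which adds actin at the pointed end and lengthens the thin filament of the heart. It stood at 10.60, 10.60 and 10.56 log2 units in knockout replicates 1, 2 and 3, against 9.95, 9.77 and 9.62 in wild type. The knockout arrays were almost equal (SD 0.02) and all above wild type (SD 0.16). The difference was 0.81 (SE 0.12, interval 0.52 to 1.09), or 1.75-fold, at adjusted p = 0.00364. It passed in 17 of 18 alternative fits, the fits without each array among them, and missed after cyclic loess normalization (0.35, adjusted p = 0.0724).

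Cap2 encodes a cyclase-associated protein of striated muscle that binds actin monomers and helps to turn filaments over. It read 8.41, 8.57 and 8.12 in knockout replicates 1, 2 and 3, against 7.91, 7.73 and 7.28 in wild type. The groups did not overlap. The difference of 0.73 (SE 0.19), or 1.66-fold, had an adjusted p of 0.0326 and passed in 10 of 18 alternative fits. It was lost without wild type replicate 2 (0.77, adjusted p = 0.0504) or 3 (0.55, 0.0766), without knockout replicate 1 (0.71, 0.104) or 2 (0.63, 0.125), and after quantile normalization (0.47, 0.103), cyclic loess normalization (0.39, 0.161) or centring on cardiomyocyte markers (0.72, 0.0621).

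Tmod1, the tropomodulin that caps the pointed end and stops growth, stood at 8.89, 9.08 and 8.92 in knockout replicates 1, 2 and 3, against 8.80, 8.16 and 7.54 in wild type. The wild type arrays spread over more than 1 log2 unit, with replicate 1, the array of highest atrial markers, next to the knockout. The difference was 0.80 (SE 0.28, interval 0.17 to 1.43), or 1.74-fold, at adjusted p = 0.0878. Without wild type replicate 1 it was 1.12 (adjusted p = 0.00708). Lmod2 and Tmod1 act against each other at the same filament end, and the difference between them on an array changed by 0.0073 (SE 0.28, exact two-sided permutation p = 1). That difference was 1.714, 1.51 and 1.636 in knockout replicates 1, 2 and 3, against 1.147, 1.605 and 2.087 in wild type. With 3 arrays against 3 no p below 0.1 is possible, so the test does not bear on whether their balance shifted.

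The promoters of the 2 called genes are shown for comparison with those of the actins. The Lmod2 promoter is chr6:24597521-24597820 and the Cap2 promoter chr13:46501653-46501952, both on the plus strand of GRCm38.p6, with the same capitals.
Lmod2: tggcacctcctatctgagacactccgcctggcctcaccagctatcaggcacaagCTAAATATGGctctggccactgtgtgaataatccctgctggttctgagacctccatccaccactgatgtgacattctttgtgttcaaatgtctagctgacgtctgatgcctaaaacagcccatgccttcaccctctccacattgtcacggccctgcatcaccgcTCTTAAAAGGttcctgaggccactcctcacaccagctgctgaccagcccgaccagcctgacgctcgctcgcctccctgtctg
Cap2: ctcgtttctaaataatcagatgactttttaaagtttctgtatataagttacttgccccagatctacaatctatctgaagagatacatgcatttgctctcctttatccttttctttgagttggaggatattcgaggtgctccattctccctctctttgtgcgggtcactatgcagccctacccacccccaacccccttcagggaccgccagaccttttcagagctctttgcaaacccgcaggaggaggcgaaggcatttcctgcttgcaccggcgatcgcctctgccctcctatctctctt
The Lmod2 promoter held runs with 1 departure from the box at -196 and -32, as 19.9% of all promoters hold at least 1. The Cap2 window held neither form, which says nothing of the factor elsewhere.

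**Figure D2:**
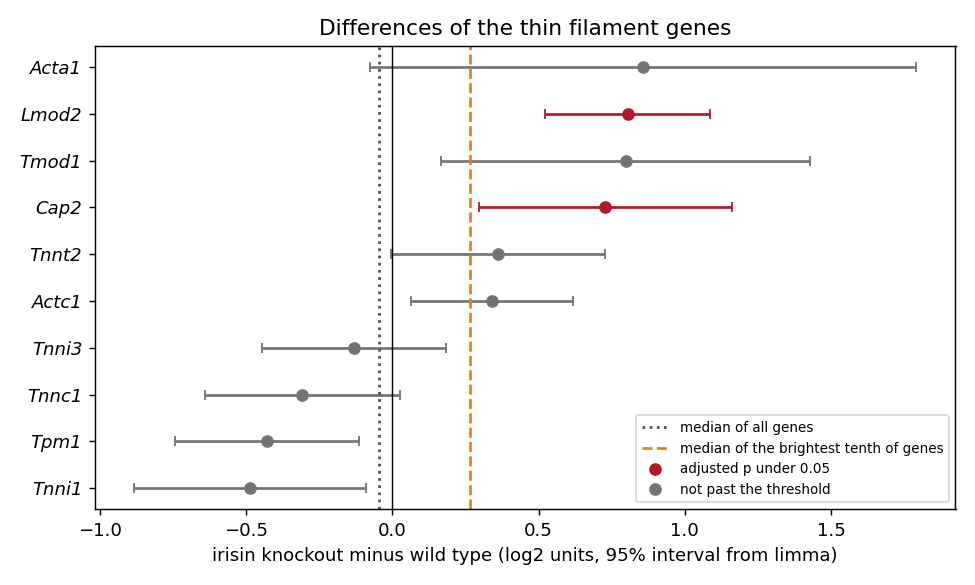
Difference of irisin knockout minus wild type for the 10 genes, in log2 units with the 95% interval from limma, beside the median of all genes (dotted, -0.05) and of the brightest 10% (dashed, 0.27). Lmod2 at 0.81 and Cap2 at 0.73, in red, passed an adjusted p of 0.05, and the wide bar of Acta1 runs from -0.08 to 1.79.

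**Figure D3:**
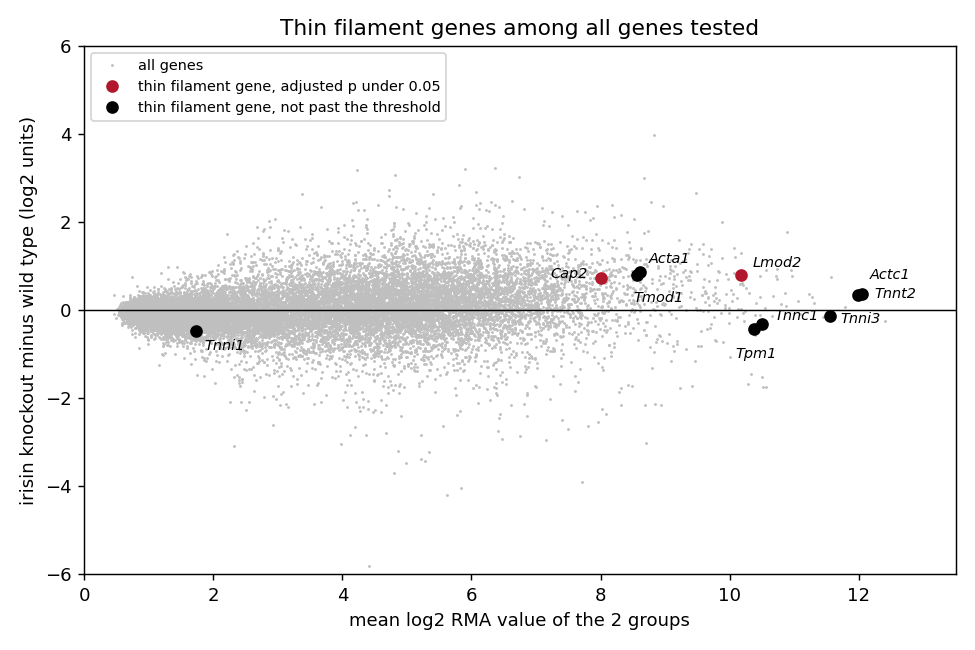
Difference of irisin knockout minus wild type against the mean log2 RMA value of the 2 groups for all 23185 genes (grey), with the 10 thin filament genes marked. All of them but Tnni1 sit at the bright end, where the median of genes lies above 0, and the differences of the 10 genes run from -0.49 to 0.86.

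Wild type arrays varied more than knockout arrays in all 10 genes. The SD over 3 arrays ran from 0.02 to 0.29 (median 0.09) in knockout and from 0.15 to 0.95 (median 0.27) in wild type. A larger SD in wild type was also seen in 62.9% of all genes and in 77.1% of the brightest 10%. Wild type replicate 1 was lowest of its group for Actc1, Tnnt2, Tnni3, Tnnc1 and Tpm1 and highest for Tmod1, Lmod2 and Cap2. On that array the atrial light chains Myl4 and Myl7 stood at 10.80 and 10.16, against 5.72 and 4.22 in wild type replicate 2 and 7.05 and 5.55 in replicate 3. The ventricular light chain Myl2 was lowest there, at 10.76 against 11.46 and 11.20. In the knockout, too, Myl4 and Myl7 were highest in replicate 1, at 6.27 and 5.09. They stood at 2.49 and 2.44 in knockout replicate 2 and 2.68 and 1.33 in knockout replicate 3. The part of atrial tissue in these results was not tested. Without wild type replicate 1 Lmod2, Cap2 and Tmod1 passed as higher and Tnnc1 and Tpm1 as lower. With both arrays numbered 1 left out, as tried once the values were known, 2 genes passed as higher (Lmod2 and Tmod1) and 0 as lower.

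**Figure D4:**
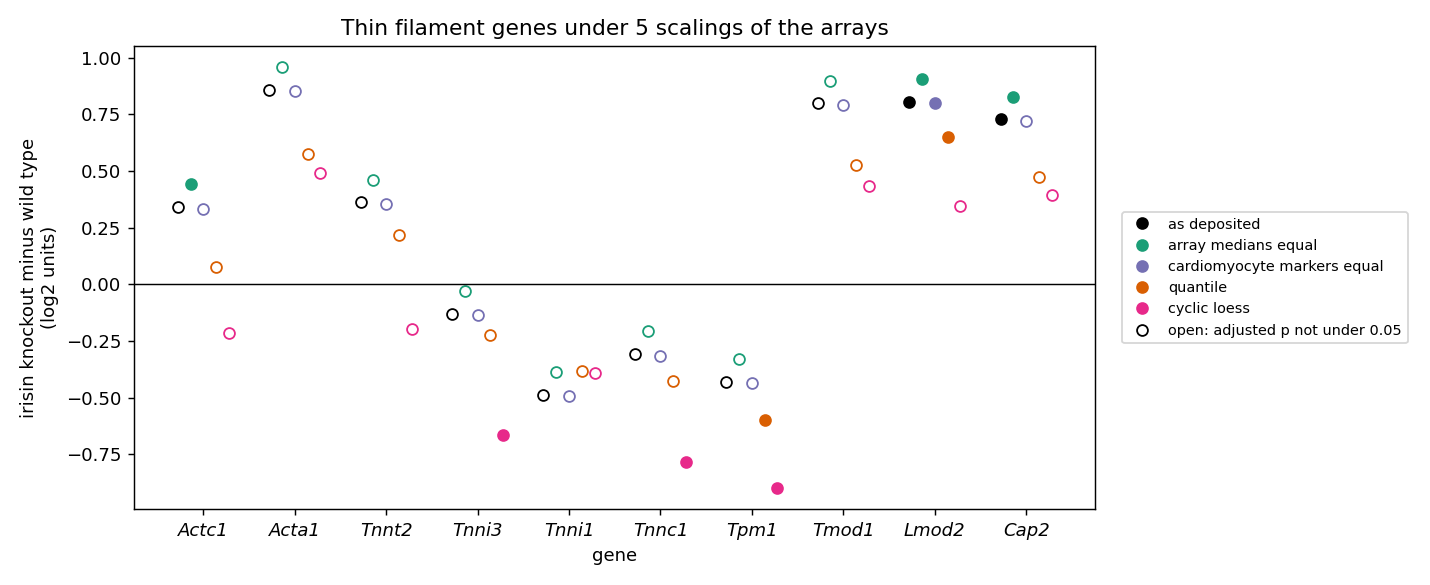
Difference of irisin knockout minus wild type of each thin filament gene, in log2 units, under 5 scalings of the arrays, filled where the adjusted p was under 0.05. Lmod2 was positive under all 5, from 0.35 to 0.91, Tpm1 negative under all 5, from -0.90 to -0.33, and Actc1 and Tnnt2 changed sign under cyclic loess normalization.

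Scaling decided much of the picture for the brightest genes. Making array medians equal raised all differences by 0.10 and added Actc1 (0.44, adjusted p = 0.0358). Quantile normalization left Lmod2 higher (0.65) and Tpm1 lower. Cyclic loess normalization, which removes a difference shared by genes of like level, left 0 genes higher and 3 lower. Tmod1, Lmod2, Cap2 and Acta1 remained positive and Tnni3, Tnni1, Tnnc1 and Tpm1 negative under all 5 scalings.

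Other genes of the thin filament and of actin handling were described from 6 lists with 52 measured genes (Actg1 was not analysed here). Of these, 13 rose, 7 fell and 32 did not pass, so that 38.5% were called, against 16.6% of all genes and 45.7% of the brightest 10%, in which 31 of the 52 lie. The 45.7% holds for bright genes only and the 38.5% for bright and dimmer genes together, so these shares are not like for like. The median difference was -0.02. The lists hold genes of muscle and of other cells, and the fall of smooth muscle and fibroblast markers given above runs along with them; its part was not tested.

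Relatives of the pointed-end proteins moved in both directions. Of 5 genes 2 rose and 1 fell, a share of 60%, against 16.6% of all genes and 45.7% of the brightest 10%, in which 1 of the 5 lies. Lmod3, a leiomodin best known from skeletal muscle, stood at 6.34, 6.35 and 6.20 in knockout replicates 1, 2 and 3, against 4.20, 4.46 and 4.24 in wild type. The knockout values were equal within 0.2 log2 units and far above wild type, a 3.99-fold difference (2.00, SE 0.12, limma adjusted p = 0.000136) that passed in all 18 alternative fits. Tmod4, the tropomodulin of skeletal muscle, rose 2.15-fold (1.10, SE 0.17, adjusted p = 0.00331), also in all 18 fits. Tmod3, the tropomodulin made in most tissues, fell by 0.49 on the log2 scale (adjusted p = 0.0236) and passed in 10 of 18 fits. Tmod2 and Lmod1 did not pass. The skeletal muscle markers had a median difference of -0.21, with 0 of 8 past the threshold.

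At the opposite, barbed end, actin is held by the capping protein CapZ. Its genes Capza2 and Capzb rose 2.46-fold (1.30, SE 0.16) and 2.01-fold (1.01, SE 0.18), while Capza1 did not pass. Of 13 genes of the barbed end and of filament length 5 rose and 0 fell. The others that rose were Nrap, a nebulin relative of myofibril assembly (1.79-fold), the formin Daam1 (1.72-fold) and the actin-binding protein Xirp2 (1.53-fold). The 5 make 38.5% of the list, against 10.4% called higher among all genes and 34.5% among the brightest 10%. In that brightest 10% lie 9 of the 13. Capza2, Capzb, Nrap and Daam1 passed in all 18 alternative fits and Xirp2 in 11. Neb, which encodes nebulin, and its relative Nebl did not pass.

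Actin turnover genes rose and fell in equal number, 3 and 3 of 12. Twf2, a twinfilin that binds actin monomers and capping protein, stood at 9.34, 9.34 and 9.22 in knockout replicates 1, 2 and 3, against 7.58, 7.51 and 7.47 in wild type, 3.44-fold higher with no overlap (1.78, SE 0.11, limma adjusted p = 0.000136). The profilin Pfn2 rose 2.00-fold and Cfl2, the muscle cofilin, 1.90-fold. The filament-severing genes Gsn and Dstn fell 1.75-fold and 1.98-fold, and the monomer-binding thymosin Tmsb4x 1.80-fold. Cfl2 passed in 11 of 18 alternative fits and the other 5 in all 18. Cap1, the relative of Cap2 that most tissues use, did not pass (-0.04, adjusted p = 0.875).

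Actins and tropomyosins that are not of the cardiac sarcomere fell or did not pass. Acta2, the smooth muscle actin, stood at 8.05, 7.49 and 8.03 in knockout replicates 1, 2 and 3, against 9.72, 9.70 and 10.62 in wild type, 4.46-fold lower. Actb, the actin of the general cytoskeleton, was 1.67-fold lower and Tpm4, a tropomyosin outside the sarcomere, 1.83-fold lower (adjusted p = 0.00155, 0.0122 and 0.00213 in limma). None of the other troponin genes passed, and 0 of 7 other troponins and tropomyosins rose. Smooth muscle markers fell for 6 of 7 genes (median -2.35), with Myl9 at 5.17, 4.82 and 5.14 in knockout, against 8.09, 7.05 and 8.20 in wild type, and Tagln 7.12-fold and Mylk 2.06-fold lower (past the threshold in 17 and 15 of 18 alternative fits). Fibroblast markers fell for 5 of 8 (median -1.17), among them Col3a1 (-2.85), Col1a1 (-2.50), Col1a2 (-2.05) and Postn (-1.69). The other markers of that list, Dcn (-0.01), Lum (-0.33) and Tcf21 (0.10), did not pass (limma, adjusted p = 0.966, 0.312 and 0.799). Fewer cells of a type and less RNA per cell cannot be told apart in such samples.

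Of 12 transcription factors that drive cardiac and actin genes, 3 rose and 0 fell. The 3 make 25.0% of the list, between the 10.4% called higher among all genes and the 34.5% among the brightest 10%, in which 10 of the 12 lie. Mef2a and Mef2d, muscle factors of the MEF2 family, rose 1.71-fold and 1.81-fold, and the cardiac factor Gata4 rose 1.57-fold. Mef2a and Mef2d passed in 17 of 18 alternative fits and Gata4 in 13. Srf and its cofactors Mrtfa, Mrtfb and Myocd did not pass, with differences of 0.32, 0.03, 0.14 and 0.13. In the lists closest to the thin filament, 1 of 8 myosin genes (Myh7) and 3 of 11 Z-disc genes rose, and 0 fell in either. The shares were 12.5% and 27.3%, against 10.4% called higher among all genes and 34.5% among the brightest 10%. In that brightest 10% lie 4 of the 8 and 9 of the 11. The 3 Z-disc genes were Myot, Actn2 and Nexn, at 7.19-fold, 1.70-fold and 1.42-fold. Myot and Myh7 passed in all 18 alternative fits and Actn2 in 17, missing after cyclic loess normalization (0.27, adjusted p = 0.232). Nexn passed in 9 of 18, was lost in 5 of 6 fits without a single array and stood at 0.11 (adjusted p = 0.653) after cyclic loess normalization. Whether these lists differ from the thin filament genes was not tested.

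**Figure D5:**
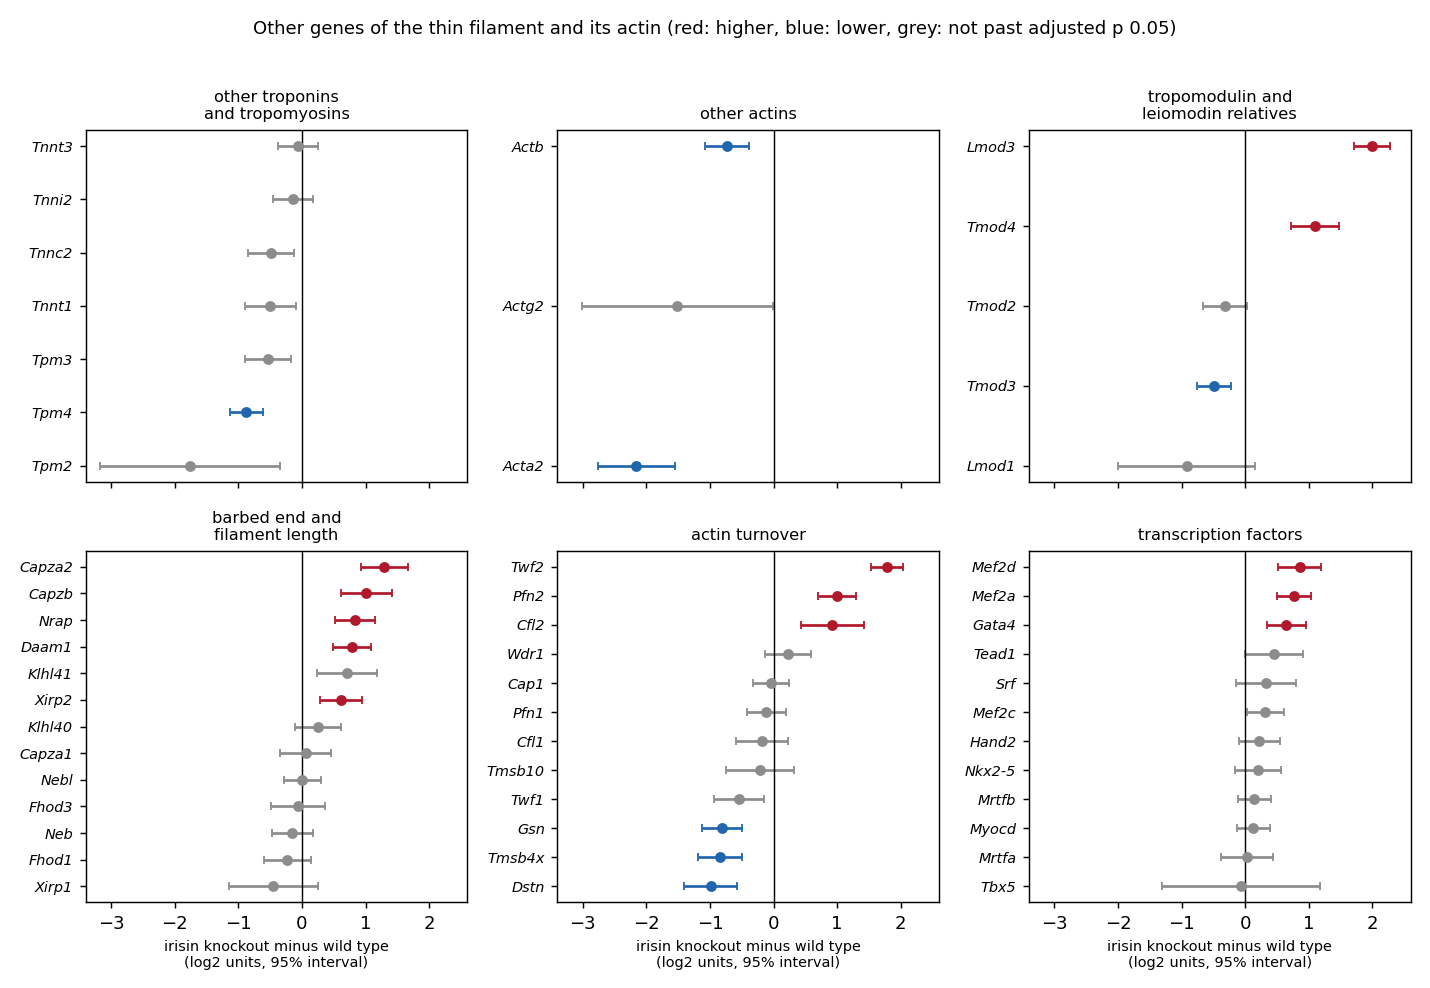
Difference of irisin knockout minus wild type, in log2 units with 95% intervals from limma, for 52 further genes in 6 lists, red where called higher and blue where called lower. Lmod3 at 2.00 and Twf2 at 1.78 are the highest points, and Acta2 at -2.16 is the lowest.

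The remaining marker lists held few calls. Endothelial markers fell for 2 of 7 genes, Egfl7 2.41-fold and Pecam1 1.43-fold, and macrophage markers for 1 of 6, Mrc1 1.58-fold. Cardiomyocyte markers rose for 1 of 8, the calcium pump inhibitor Pln at 1.70-fold. That share of 12.5% stands against 10.4% called higher among all genes and 34.5% among the brightest 10%, in which all 8 lie. Pln was lost in 5 of 18 alternative fits, 3 of them without a single knockout array, and stood at 0.23 (adjusted p = 0.564) after cyclic loess normalization. Pecam1 passed in 14 of 18 fits, and Egfl7 and Mrc1 in all 18. Atrial, skeletal muscle, blood and adipocyte lists had 0 calls; the genes of lowest p in each were Myl4 (-4.05) and Myl7 (-3.70), Tnnc2 (-0.48) and Mylpf (-0.33), Hbb-bs (-1.01) and Alas2 (-0.90), and Plin1 (-0.17) and Cidec (-0.27). In the heme gene Alas2 wild type replicate 2 stood out at 7.41, against 4.41 to 5.14 in knockout and 4.70 and 4.60 in the other wild type arrays.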

How the data were processed

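Total RNA of 3 irisin knockout and 3 wild type samples was put on Affymetrix arrays after biotin labelling (labels' protocols). The deposited values are log2 RMA summaries that the authors made with the affy package (1.61.0) under R (3.6.0), per the submitters' processing notes, and their log2 scale was inferred from the range. Probe sets, background step and genome build are not stated in the sources used, and no detection calls were used, so low values are not told apart from background. Array medians ran from 2.13 to 2.28.

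Of 25206 rows, the platform annotation named 23185 with 1 gene symbol, 0 with several and 2021 with none; the named rows were tested. All 23185 symbols were found in RefSeq (GRCm38.p6), which also gave promoters for the 10 genes. Groups came from the titles. Each gene was tested with limma 3.58.1 in R 4.3.3 (lmFit and eBayes, genotype only, two-sided, Benjamini-Hochberg over all named genes), after the code was tested on simulated data. Differences are knockout minus wild type. Alternatives were 4 scalings, filters on dim genes, all rows, other variance models, array weights, a replicate block, each array left out and other thresholds. Named are the 10 genes, Fndc5, in each list the called genes (at most 4 by p) or the 2 of lowest p, and for called members the 2 genes most like them. The members and lists were chosen with earlier results of these data known. Genes named outside the rule were chosen after their values were seen. Having 3 arrays per group limits precision. Plots used matplotlib 3.10.9 in Python 3.11.15.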

Additional observations from a re-analysis of the deposited data

How the results depend on the processing

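Counts of thin filament genes called were small and moved with most settings. Against 2 higher and 0 lower, there were 1 and 1 after quantile normalization, 0 and 3 after cyclic loess normalization, 1 and 0 after centring on cardiomyocyte markers, 1 and 0 at an adjusted p of 0.01, 4 and 2 at 0.1, and 1 to 3 and 0 to 2 without single arrays. Over all genes, 1403 to 2570 were higher and 701 to 1593 lower without single arrays, 1256 and 528 passed at 0.01 and 2212 were lower at 0.1; 938 were lower with both arrays numbered 1 left out, as tried once the values were known. Of the wider lists, 8 genes were higher after cyclic loess normalization and 12 lower at 0.1. Calls were gained after quantile normalization for Tpm1 (-0.60), after cyclic loess normalization for Tnni3 (-0.66), Tnnc1 (-0.78) and Tpm1 (-0.90), with equal medians for Actc1 (0.44), and without both arrays numbered 1 for Tmod1 (1.15). They were lost for Cap2 after quantile normalization (0.47), centring on cardiomyocyte markers (0.72) and without both arrays numbered 1 (0.84), and after cyclic loess normalization for Lmod2 (0.35) and Cap2 (0.39). That normalization turned Actc1 (-0.21) and Tnnt2 (-0.20) and moved the contrast of Tnni1 with Tnni3 to 0.27. The cause was not tested. Without single arrays Cap2 ran from 0.55 to 0.86, Tmod1 from 0.48 to 1.12, Tnni1 from -0.68 to -0.37, Tnnc1 from -0.45 to -0.23 and Tpm1 from -0.52 to -0.35. The uncalled Acta1 ran from 0.33 to 1.26, Tnnt2 from 0.20 (without wild type replicate 1) to 0.49, Tnni3 from -0.25 to -0.044, Myl7 from -4.91 to -1.94 and Hbb-bs from -1.30 to -0.60. Signs turned, with no call, for Alas2 (-1.38 to 0.023), Plin1 (-0.34 to 0.046) and Cidec (-0.80 to 0.070) over the fits without single arrays, and without both arrays numbered 1 for Plin1 (0.043) and Cidec (0.075).

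With the replicate number as a block, 2 thin filament genes were higher and 0 lower, and 2247 and 1330 of all genes; the block changed no call of the 10 genes. Same-numbered arrays shared little deviation from their group means (r across genes, which are not independent, of 0.09, 0.05 and 0.07), each under the 0.1 set for pairing. Wild type replicates 1 and 3 correlated best with their own number and replicate 2 with knockout replicate 3 by a small margin (0.055 against 0.048), so the samples were taken to share only a number. With 3 arrays per group, small differences can be missed.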

Other observations

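The genes whose pattern over the 6 arrays was most like the called thin filament genes were found among 11591 genes above the median level, as a description over arrays that share the genotype difference. For Lmod2 they were Wdr74 (Pearson r = 0.9999, and 1.00 for deviations from the group means; 1.07 log2 units higher in the knockout) and Ubl7 (0.9992 and 0.987; 2.02 higher). For Cap2 they were Pi4k2a (0.9952 and 0.990; 0.38) and Babam1 (0.995 and 0.982; 0.42), of which neither passed the threshold. Both correlations belong to genes picked as the best of that search over 6 arrays, so the second is no separate support for the first.

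The neighbours of the thin filament genes in the RefSeq gene order (GRCm38.p6) were looked at after the data were seen. Asb15, which encodes an adaptor of a ubiquitin ligase in muscle, lies next to Lmod2 and averaged 7.99 ± 0.28 in knockout arrays, against 4.75 ± 0.22 in wild type arrays (SD, n = 3), 9.43-fold higher (limma, adjusted p = 0.000136) against 1.75-fold for Lmod2. Wasl, on the other side of Lmod2, did not pass (0.33, adjusted p = 0.141). Tnnt1, the slow skeletal troponin T next to Tnni3, read 3.39 ± 0.06 in knockout arrays, against 3.88 ± 0.34 in wild type arrays (SD, n = 3; limma, adjusted p = 0.0927). Phlda3 next to Tnni1 and Tdrd7 next to Tmod1 fell by 0.62 and 0.43 on the log2 scale, and Aqr next to Actc1 rose by 0.42 (limma, adjusted p = 0.0439, 0.0313 and 0.0333). Of these neighbours of the 10 genes, those not named here did not pass.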
